A study of Mus musculus with 6 samples.

Results

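The genes described here encode proteins that bind AU-rich elements, the short U-rich stretches with repeated AUUUA in the 3′ untranslated regions of many short-lived messenger RNAs. They include the 4 Hu genes Elavl1 (which encodes HuR), Elavl2, Elavl3 and Elavl4. The others are 3 genes of the tristetraprolin family, Zfp36, Zfp36l1 and Zfp36l2, and Hnrnpd, Khsrp and Tia1. They were chosen by gene symbol, with earlier results of these data known. All 10 symbols were found among the 24062 in the deposited count table, and all 10 passed the filter on low counts, as did 15901 genes in all. Read counts came from 6 tongues with tumour of C57BL/6 mice about 34 weeks old. Of these, 3 were labelled HuR knockout (KO) and 3 wild type (WT), and all 6 mice, WT included, had received the oral carcinogen 4-nitroquinoline 1-oxide for 16 weeks, followed by a wait of 12 weeks. The sources used here do not give the promoter or Cre line behind the knockout, the deleted exons or the cells in which the gene was lost. Nothing in the labels ties the replicates of a group to litters or days, so the p-values reflect only how these 6 samples vary.

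Hu proteins have 3 RNA recognition motifs, and HuR, which is made in nearly all cell types, mostly stabilises the AU-rich messenger RNAs it binds and moves with them from nucleus to cytoplasm. The other Hu proteins are chiefly neuronal. Tristetraprolin, the product of Zfp36, and its relatives bind the same kind of element through zinc fingers and recruit the machinery that removes the poly(A) tail, so that the message decays. The Hnrnpd product AUF1 and the Khsrp product KSRP are mostly known to promote decay, and TIA-1 represses translation and takes part in stress granules. Several of these proteins bind each other's messages as well as their own.

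Total gene counts ran from 29541614 in WT replicate 3 to 51518303 in KO replicate 3. Levels below are CPM, the counts scaled to a common library size by the TMM method, with SD over 3 libraries. A difference is the log2 fold change, KO minus WT by label, ± its standard error. The test was edgeR's quasi-likelihood test, its p-values were adjusted over all genes tested by the method of Benjamini and Hochberg, and a gene is called below 0.05. Summed levels of some cell type markers differed between the groups. Those of 20 fast muscle markers were 46054 to 64968 CPM in the KO libraries and 81516 to 149280 in the WT libraries, with 8 of the 20 called lower and none higher. Sums of 18 suprabasal keratinocyte markers were 30797 to 43003 CPM in KO and 17273 to 25881 in WT, with 8 called higher and none lower. Among all genes tested, 4.81% were called higher and 7.42% lower. Sex-linked genes showed 1 male and 2 female mice in the KO group and 3 males in the WT group.

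The transcripts of these 10 genes themselves hold letters like those their proteins recognise. In the longest annotated 3′ untranslated region of each gene (GENCODE M21, GRCm38) the pentamer ATTTA, the heptamer TATTTAT and the nonamer TTATTTATT were counted on the sense strand, with overlapping matches, so that every nonamer also holds a heptamer and a pentamer. All 10 genes had at least 1 pentamer, from 1 in Khsrp to 17 in Elavl1. The nonamer, the form that tristetraprolin family proteins bind best, was found in 5 of them, against 7.6% of all 20966 untranslated regions read, of which 65% held the pentamer and 27.5% the heptamer. A match describes the letters and is not a measured binding site. The nonamer is shown here in capitals with 8 bases on each side, because it sets the 3 tristetraprolin family genes and 2 Hu genes apart from the other 5. For Elavl1 the window is 1 of 8.
Zfp36: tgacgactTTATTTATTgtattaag
Zfp36l1: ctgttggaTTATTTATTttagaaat
Zfp36l2: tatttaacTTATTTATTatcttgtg
Elavl1: ttatttatTTATTTATTtattttta
Elavl4: tgaaacacTTATTTATTtaattgca

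These windows lie at chr7:28376953-28376977 for Zfp36, chr12:80108169-80108193 for Zfp36l1, chr17:84184916-84184940 for Zfp36l2, chr8:4285782-4285806 for Elavl1 and chr4:110204987-110205011 for Elavl4, all in GRCm38 and on the minus strand. The nonamer of Zfp36 begins 589 bases after the stop codon in an untranslated region of 774 bases, that of Zfp36l1 1404 bases after it in 1835 bases, and that of Zfp36l2 821 bases after it in 1822 bases. The 8 nonamers of Elavl1 begin 3794 to 3840 bases after the stop codon, 7 of them overlapping another in runs of ATTT repeats, near the end of an untranslated region of 4218 bases. Longer regions hold more matches: among untranslated regions within 20% of the same length, a nonamer was present in 17.9% for Elavl1, 12.8% for Elavl4, 9.93% for Zfp36l2, 9.91% for Zfp36l1 and 4.04% for Zfp36. At least as many pentamers as in Elavl1 were found in 4.62% of regions of its length, whose median was 7. Elavl2 had 15 pentamers and no nonamer, Hnrnpd 10, and Elavl3 and Tia1 8 each. At least as many were found in 1.28% of regions of similar length for Elavl2 and in 50.3% for Hnrnpd. For Elavl3 that share was 35.9%, for Tia1 30.2% and for Khsrp, with 1 pentamer, 86.5%.

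Elavl1, the targeted gene (identifier 15568, GRCm38 chr8:4284781-4325140, minus strand), showed no fall in the KO-labelled libraries. Its level was 65.0, 59.3 and 78.4 CPM in KO replicates 1, 2 and 3, and 61.7, 55.8 and 48.0 CPM in WT replicates 1, 2 and 3. The highest value belonged to a KO library and the lowest to a WT library, and the groups overlapped. The mean was 67.6 ± 9.80 CPM (SD, n = 3) in KO and 55.1 ± 6.91 CPM in WT. The difference was 0.29 ± 0.15 on the log2 scale, with a 95% interval from -0.05 to 0.64 and an edgeR adjusted p of 0.180. As a fold it was 1.23, with an interval from 0.966 to 1.55, so a level below 0.966 of that in WT lies outside the interval. A 2-sided exact permutation test of the CPM values gave p = 0.2, where the smallest value possible with 3 against 3 is 0.1. These counts are summed over the gene, and counts outside a deleted part would not show its loss. A tongue also holds many cell types, and in bulk RNA fewer cells of a type cannot be told apart from less RNA per cell. The groups are therefore named by their labels throughout.

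**Figure D1:**
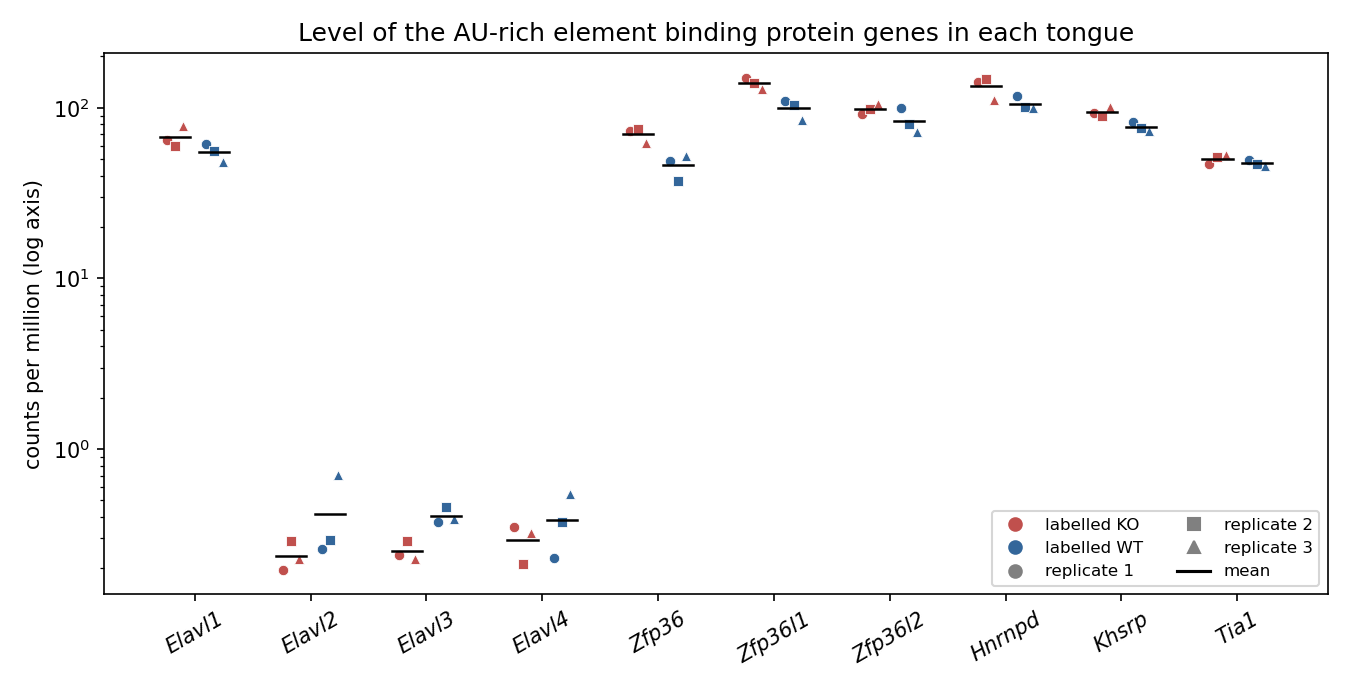
Level of each of the 10 genes in each library, in CPM on a log axis, with labelled KO in red, labelled WT in blue, a marker shape for each replicate and a bar for the mean of 3. Elavl1 does not drop in the labelled KO libraries, the 3 Zfp36 values of KO (62.4 to 75.2) sit above those of WT (37.5 to 52.1), and Elavl2, Elavl3 and Elavl4 stay below 1 CPM.

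The depth behind Elavl1 was 2983, 2243 and 4156 reads in KO and 2153, 2675 and 1227 reads in WT. The difference was positive under every alternative tried, from 0.0045 with the mean of 12 basal keratinocyte markers as a covariate to 0.44 with library size as the only scaling, and none passed the threshold. The basal keratinocyte markers, which mark the cell layer next to the basement membrane, summed to 14406 to 15963 CPM in KO and 7670 to 13292 in WT. None of the 12 was called by edgeR. Before adjustment 6 were higher and 1 lower with a p under 0.05, beside 18.2% and 20.3% of all genes. Their part in the Elavl1 values was not tested beyond that covariate.

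The other Hu genes were barely detected. Elavl2 (HuB) had 0.196, 0.291 and 0.226 CPM in KO and 0.258, 0.292 and 0.703 in WT, which is 9 to 18 reads a library. WT replicate 3 alone lay far above the rest. Elavl3 (HuC) had 0.240, 0.291 and 0.226 CPM in KO and 0.373, 0.459 and 0.391 in WT, and these groups did not overlap. Elavl4 (HuD) had 0.349, 0.212 and 0.321 CPM in KO and 0.229, 0.375 and 0.547 in WT, with overlapping groups. None was called in the edgeR fit: the differences were -0.75 ± 0.48 for Elavl2 (adjusted p = 0.271), -0.70 ± 0.33 for Elavl3 (adjusted p = 0.156) and -0.34 ± 0.42 for Elavl4 (adjusted p = 0.570). The intervals were wide, from -1.87 to 0.36 for Elavl2, from -1.47 to 0.07 for Elavl3 and from -1.32 to 0.64 for Elavl4, so that neither no difference nor a fall by more than 1 on the log2 scale was outside any of them.

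Of 20 markers of the neurons in which these 3 genes are chiefly expressed, 12 passed the filter on low counts. The summed level of the list was 134 to 193 CPM in KO and 198 to 279 CPM in WT, without overlap. Nos1 and Tubb3 made up most of it: Nos1 had a mean of 68.5 CPM in KO and 170 in WT, and Tubb3 of 69.4 and 22.3. Without Nos1 the sum was 89.1 to 116 CPM in KO and 78.0 to 85.0 in WT, the other direction, although 9 of the 11 genes left had a difference below 0 (an alternative chosen after seeing the data). In the edgeR fit Nos1, which encodes neuronal nitric oxide synthase, fell by 1.31 on the log2 scale (adjusted p = 0.0354), Syp, for synaptophysin of synaptic vesicles, fell by 1.17 (adjusted p = 0.0359) and Vip, a neuropeptide gene, fell by 1.87 (adjusted p = 0.0493), while Tubb3, for a neuronal tubulin, was 1.63 higher (adjusted p = 0.0333). Nos1 is also made in muscle. None of the 20 was at 0 in all libraries. The part of neuronal content in the values of Elavl2, Elavl3 and Elavl4 was not tested.

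Zfp36 was the only one of the 10 genes called between the groups. Its level (identifier 22695, GRCm38 chr7:28376784-28379228, minus strand) was 72.9, 75.2 and 62.4 CPM in KO and 49.1, 37.5 and 52.1 CPM in WT. Every KO library was above every WT library. The mean was 70.2 ± 6.85 CPM in KO and 46.2 ± 7.70 CPM in WT (SD, n = 3). The difference was 0.60 ± 0.15 on the log2 scale, or a fold of 1.52 with a 95% interval from 1.19 to 1.94, with an edgeR adjusted p of 0.0448. A 2-sided exact permutation test gave 0.1, the smallest p that 3 against 3 allows. Reads behind these values were 3347, 2844 and 3306 in KO and 1712, 1798 and 1332 in WT.

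One call among 10 is read against 12.2% called among all genes tested, of which 4.81% were higher and 7.42% lower in KO. The adjusted p of Zfp36 lay close to the threshold, as did those of 872 genes between 0.04 and 0.05. The call was lost when KO replicate 1 was left out (edgeR adjusted p = 0.145), as it was without KO replicate 2 (0.144), KO replicate 3 (0.0675) or WT replicate 2 (0.152). Those fits called 10, 0, 52 and 1 genes of the whole table in that order, so the loss was not particular to Zfp36. The difference stayed between 0.47 and 0.70 in the 6 fits without 1 library. With sex, the fast muscle mean or the basal keratinocyte mean as a covariate, no gene of the whole table was called. With the sex of the mice as a covariate the difference was 0.66 and the adjusted p 0.197. With the fast muscle mean they were 0.34 and 1.00, and with the basal keratinocyte mean 0.63 and 0.760. Over all alternatives the adjusted p of Zfp36 ran from 0.00657 to 1.00. In the only male KO mouse, replicate 1, the level of 72.9 CPM was above the 37.5 to 52.1 of the 3 male WT mice, a comparison with 1 library on one side and no test. Zfp36 is also an early gene of activated myeloid cells, and 14 myeloid markers summed to 905 to 2189 CPM in KO and 289 to 642 in WT, with 2 of the 14 (Cd14 and Csf3r) called higher and none lower. That sum was carried by S100a8 and S100a9, neither of them called, and the other 12 markers summed to 274 to 341 CPM in KO and 280 to 309 in WT, with overlap, an alternative chosen after seeing the data. Their part in the Zfp36 values was not tested.

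The relative Zfp36l1 (BRF1, identifier 12192, GRCm38 chr12:80107760-80113013, minus strand) had 150, 140 and 129 CPM in KO and 110, 104 and 84.3 CPM in WT. The groups did not overlap. The difference of 0.49 ± 0.14, a fold of 1.40, missed the threshold in the edgeR fit (adjusted p = 0.0537). It passed with DESeq2, where the difference was 0.48 and the adjusted p 0.0154, and without WT replicate 1, where it was 0.58 and 0.0179. These 2 fits called 28.1% and 35.9% of all genes. Over all alternatives the difference ran from 0.16, with the fast muscle mean as a covariate, to 0.64. Exons of the noncoding gene Gm26669 on the opposite strand overlap 55.9% of the exon bases of Zfp36l1. The strand setting of the counting is not given in the sources used here, so reads of the 2 genes cannot be told apart.

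Zfp36l2 (BRF2, identifier 12193, GRCm38 chr17:84183924-84187947, minus strand) is the last tristetraprolin family gene described here. It had 92.2, 97.9 and 106 CPM in KO and 99.1, 80.1 and 72.4 CPM in WT. WT replicate 1 lay among the KO values, and the difference was 0.23 ± 0.14 (edgeR adjusted p = 0.252). Without that library it was 0.38 and called (adjusted p = 0.0430), in a fit that called 35.9% of all genes. With the basal keratinocyte mean as a covariate it was -0.06.

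**Figure D2:**
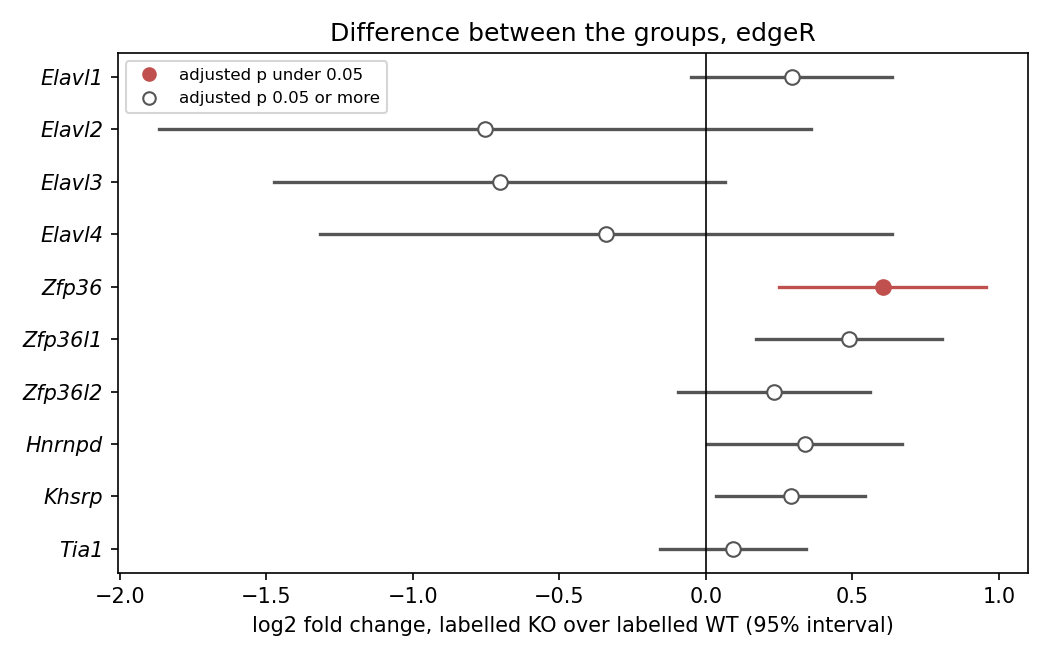
Log2 fold change of labelled KO over labelled WT for the 10 genes in the edgeR fit, with 95% intervals from n = 3 and 3 libraries. A filled point marks an adjusted p under 0.05: Zfp36 alone is filled, 7 of the 10 points lie above 0, and the intervals of Elavl2, Elavl3 and Elavl4, with 8 to 22 reads a library, are the widest.

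Of the remaining genes, Khsrp had groups that did not overlap. Its level (identifier 16549, GRCm38 chr17:57021049-57031507, minus strand) was 93.7, 89.9 and 101 CPM in KO and 82.9, 76.6 and 73.4 CPM in WT. The spread within each group was small, and the difference was 0.29 ± 0.11, with an interval from 0.04 to 0.54 and an edgeR adjusted p of 0.0986. It was called only without WT replicate 1, at 0.35 (adjusted p = 0.0473), in a fit that called 35.9% of all genes. Hnrnpd (identifier 11991, GRCm38 chr5:99955935-99979130, minus strand) had 141, 148 and 112 CPM in KO and 117, 101 and 100 CPM in WT. KO replicate 3 was below WT replicate 1, so that the groups overlapped, and the difference was 0.34 ± 0.14 (edgeR adjusted p = 0.127). Among the 4 libraries of 1 deposited table (KO replicates 1 and 2, WT replicates 2 and 3), it was 0.50 (adjusted p = 0.0257). Hnrnpd was called there, as were 33% of all genes. With the fast muscle mean as a covariate the difference was -0.10.

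Tia1 (identifier 21841, GRCm38 chr6:86404203-86433405, plus strand) differed least between the groups. It had 46.9, 51.7 and 52.7 CPM in KO and 49.6, 46.6 and 45.8 CPM in WT, and KO replicate 1 lay within the WT range. The coefficient of variation was 6.20% in KO and 4.30% in WT. The difference was 0.09 ± 0.11, with an interval from -0.16 to 0.34 and an edgeR adjusted p of 0.548, so that a rise by more than 1.27-fold was outside it.

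Counted over the 10 genes, the groups did not overlap for 4: Zfp36, Zfp36l1 and Khsrp were higher in every KO library and Elavl3 lower. Among all genes tested the groups did not overlap for 44.1%, with 22% higher and 22.1% lower, so this count is near the background. Before adjustment 4 genes had a p under 0.05, all of them higher, namely Zfp36, Zfp36l1, Khsrp and Hnrnpd, beside 18.2% of all genes higher and 20.3% lower. Under the alternatives, DESeq2 called 2 of the 10 (28.1% of all genes), the fit without WT replicate 1 called 4 (35.9%) and the fit to KO replicates 1 and 2 and WT replicates 2 and 3 called 3 (33%). The median difference over the 10 was 0.26, beside 0.016 over all genes tested. With library size as the only scaling the median over all genes moved to 0.18, and the difference of Zfp36 was then 0.77, that of Zfp36l1 0.64 and that of Elavl1 0.44. Added up, the 10 genes took 663, 664 and 642 CPM in KO and 571, 503 and 478 in WT, without overlap.

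The count of Zfp36 reads for each Elavl1 read sets the destabilising gene beside the stabilising one within a library, free of the scaling between libraries but not of gene length. It was 1.12, 1.27 and 0.795 in KO and 0.795, 0.672 and 1.09 in WT. KO replicate 3, with the highest Elavl1 level, had a ratio like that of WT replicate 1, and WT replicate 3, with the lowest Elavl1 level, a ratio near that of KO replicate 1. The groups overlapped, and the difference in Zfp36 between groups was not matched by a separation of this ratio.

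The authors' deposited table of all 6 libraries, turned to KO over WT, gave 0.57 for Zfp36 (adjusted p = 0.00649), 0.46 for Zfp36l1 (adjusted p = 0.0152) and 0.27 for Elavl1 (adjusted p = 0.220), with 28.7% of its genes below 0.05. In the authors' deposited table of KO replicates 1 and 2 and WT replicates 1 and 3, no gene of the 10 was below 0.05, among 9.57% of all genes. Zfp36 had 0.51 there (adjusted p = 0.118). In the authors' deposited table of KO replicates 1 and 2 and WT replicates 2 and 3, with 35.7% of genes below 0.05, Zfp36 had 0.68 (adjusted p = 0.00512), Zfp36l1 0.58 (adjusted p = 0.00795) and Hnrnpd 0.49 (adjusted p = 0.00708). The 3 tables share libraries and counts and are not separate evidence.

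**Figure D3:**
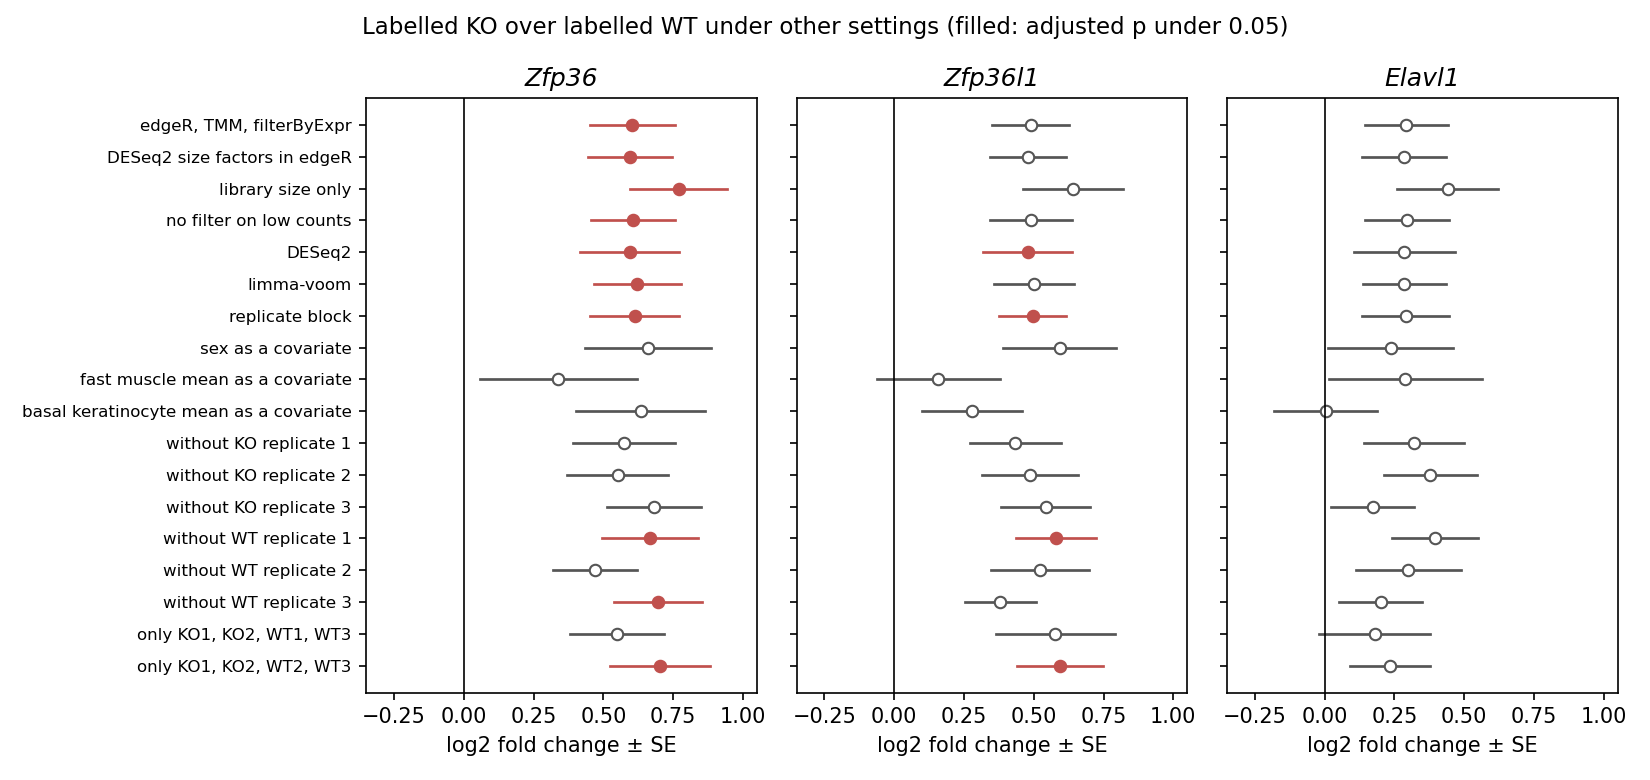
Log2 fold change of labelled KO over labelled WT ± SE for Zfp36, Zfp36l1 and Elavl1 under each scaling, filter, tool, covariate and choice of libraries, on 1 line each. A filled point marks an adjusted p under 0.05: Zfp36 runs from 0.34 to 0.77 and is filled in some settings only, Zfp36l1 is filled in 4, and Elavl1 is never filled.

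Levels of different genes were compared per kilobase of spliced transcript, taking the longest annotated transcript within the RefSeq gene ends. In WT the order of CPM per kb was Zfp36l1 at 33.4 ± 4.56, Zfp36 at 26.2 ± 4.36, Zfp36l2 at 23.8 ± 3.89, Khsrp at 19.5 ± 1.22, Hnrnpd at 15.6 ± 1.42, Tia1 at 10.6 ± 0.455 and Elavl1 at 10.1 ± 1.26. Each of the first 4 overlapped its neighbour in the libraries' values, as did Tia1 and Elavl1, while Khsrp and Hnrnpd, and Hnrnpd and Tia1, did not. In KO the order was Zfp36l1 at 46.9 ± 3.56, Zfp36 at 39.8 ± 3.88, Zfp36l2 at 27.9 ± 1.91, Khsrp at 23.9 ± 1.45, Hnrnpd at 19.6 ± 2.86, Elavl1 at 12.4 ± 1.79 and Tia1 at 11.3 ± 0.698. Of these neighbours, Elavl1 and Tia1 overlapped and the others did not. The rank of Zfp36 depends on its length, 1765 bases spliced but 3470 with every annotated exon base. With the latter its CPM per kb was 20.2 in KO and 13.3 in WT, which puts it next to Hnrnpd. The neuronal Hu genes, Elavl2, Elavl3 and Elavl4, had 0.0503 to 0.0708 CPM per kb in KO and 0.0813 to 0.0997 in WT, far below the other 7 genes and within each other's spread.

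As a description of pattern, the genes whose log2 levels followed a member most closely over the 6 libraries were ranked by Pearson's r among 10052 named genes of at least 10 CPM. For Elavl1 they were Rrp8 (r = 0.997), Chtf8 (r = 0.993) and Rpl7l1 (r = 0.993), and 399 genes had an r over 0.9. Rrp8 had 36.1 CPM in KO and 29.7 in WT, and like Elavl1 it was not called in the edgeR fit (adjusted p = 0.189). For Zfp36 they were Haus4 (r = 0.989), Snx4 (r = 0.989) and Barx2 (r = 0.987), with 201 over 0.9. Of these, Barx2, a homeobox gene, had 189 CPM in KO and 145 in WT (edgeR adjusted p = 0.0853). With 6 libraries in 2 groups, any gene that differs between the groups shares part of this pattern.

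The genes with which the 10 work were taken from 7 lists that overlap in part and hold 200 genes together, of which 195 were tested. In the edgeR fit 7 were higher and 6 lower in KO, against 4.81% and 7.42% of all genes tested. Their median difference was 0.22. Leaving out any 1 of the 3 KO libraries or WT replicate 2 left none of them called, and leaving out WT replicate 1 gave 76. Over the whole table the former fits called 0 to 52 genes, and the fit without WT replicate 1 called 5842. The calls named below thus depend on the libraries used, as do those of the whole table.

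Of 39 other proteins that bind AU-rich or similar elements, 2 were lower, none was higher and the median was 0.16. Celf2, a splicing and decay factor common in muscle and heart, had 28.7 to 31.4 CPM in KO and 42.3 to 55.3 in WT and fell by 0.70 ± 0.13 on the log2 scale (edgeR adjusted p = 0.0324). Fxr1, a relative of the fragile X protein with a muscle isoform, fell by 0.81 ± 0.21 (edgeR adjusted p = 0.0450). Both are known for high levels in muscle, and the fast muscle markers were lower in the same libraries. With the fast muscle mean as a covariate no gene of the whole table was called, and the differences were -0.39 ± 0.23 for Celf2 and -0.04 ± 0.22 for Fxr1. The part of muscle content in these values was not tested further. Fubp3, of the same family as Khsrp, had a difference of 0.59 and Rbms1 of 0.38, and neither passed (edgeR adjusted p = 0.0509 and 0.0531).

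Among 22 genes of deadenylation, the step that tristetraprolin family proteins start, 1 was higher and 1 lower, with a median of 0.20. Btg2, an adaptor that binds the deadenylase subunits and a p53-induced gene, had 83.0, 70.8 and 72.3 CPM in KO and 57.9, 46.4 and 44.0 in WT and was 0.61 ± 0.14 higher (edgeR adjusted p = 0.0389). Pabpc4, a cytoplasmic poly(A)-binding protein, fell by 0.96 ± 0.25 (edgeR adjusted p = 0.0472). The deadenylase subunits Cnot8 and Cnot6 had differences of -0.38 and 0.59 that did not pass (edgeR adjusted p = 0.0647 and 0.0662).

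Of 19 genes of decapping and 5′ to 3′ decay only the nuclear exonuclease Xrn2 was called, 0.60 ± 0.15 higher (edgeR adjusted p = 0.0444), and the median was 0.037. Dcp1a, Lsm5 and Dcp1b, of the decapping complex and its activators, had differences of 0.29, 0.43 and -0.33 and did not pass. Of 18 genes of the exosome and Ski complex, which degrade RNA from the 3′ end, none was called in the edgeR fit. Before adjustment 4 of the 18 had a p under 0.05 and were higher and 1 was lower, beside 18.2% and 20.3% of all genes. DESeq2 called 2 of the 18 and limma-voom 1, where they called 28.1% and 14.1% of all genes. The smallest adjusted p there was that of the core subunit Exosc2, with a difference of 0.52 (adjusted p = 0.0507 with edgeR). Exosc1 of the exosome had 0.45, Wdr61 of the Ski complex 0.41 and the exonuclease Dis3l -0.39.

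Of 30 genes that modify, carry or degrade HuR or tristetraprolin, 1 was higher and 1 lower, with a median of 0.10. Tnpo2, for a transportin that takes HuR into the nucleus, had 196, 188 and 164 CPM in KO and 127, 117 and 90.8 in WT and was 0.71 ± 0.16 higher (edgeR adjusted p = 0.0370). Prkca, for a protein kinase C that phosphorylates HuR, fell by 0.69 ± 0.15 (edgeR adjusted p = 0.0375). Chek1, for a DNA damage checkpoint kinase, had a difference of 0.97 that did not pass (edgeR adjusted p = 0.0514).

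Transcripts known to carry AU-rich elements were listed as 50 genes, of which 46 were tested. Of these, 2 were higher and 2 lower, and the median of 0.57 was the largest of the 7 lists, and before adjustment 19 of the 46 were higher and 3 lower with a p under 0.05, beside 18.2% and 20.3% of all genes. The chemokine gene Ccl3 had 1.13, 0.714 and 0.944 CPM in KO and 0.401, 0.167 and 0.0782 in WT. It was 2.07 ± 0.50 higher (edgeR adjusted p = 0.0418). Its WT values were well below 1 CPM, which is 25.6 to 53.0 reads, so this call rests on few reads. Ier3, a stress-induced survival gene, was 1.33 ± 0.34 higher (edgeR adjusted p = 0.0454). The 2 that fell were Myog, a transcription factor of muscle differentiation, by 1.00 ± 0.23 (edgeR adjusted p = 0.0380), and Cycs, for cytochrome c, by 0.76 ± 0.18 (edgeR adjusted p = 0.0424). With sex as a covariate the median of this list was 0.55, and without 1 library it ran from 0.42 to 0.81. With the fast muscle mean as a covariate the median was 0.026, and with the basal keratinocyte mean 0.040. No gene of the whole table was called in any of these 3 covariate fits. Summed levels of both marker lists did not overlap between the groups, so these 2 fits can hardly separate cell content from group. The part of cell content in the values of this list was not tested further.

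Zfp36 is itself an immediate early gene, and of 27 others 4 were higher and none lower, with a median of 0.30. Among all genes tested 4.81% were higher and 7.42% lower. Of the 27, 24 had a difference above 0, as had 8156 of the 15901 genes tested. Before adjustment 10 were higher and none lower with an edgeR p under 0.05, beside 18.2% and 20.3% of all genes. Those not called include Junb (0.78), Ier2 (0.55), Fos (0.29), Nr4a1 (-0.08) and Egr1 (-0.30). Klf4, a factor of epithelial differentiation, had 344, 384 and 267 CPM in KO and 200, 164 and 130 in WT and was 1.01 ± 0.21 higher (edgeR adjusted p = 0.0350). Ier5, for a nuclear early-response protein, was 0.72 ± 0.17 higher (edgeR adjusted p = 0.0392), beside Btg2 and Ier3 above. Klf4 is also abundant in suprabasal keratinocytes, whose markers were higher in the same libraries, and the part of that cell layer in these values was not tested.

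**Figure D4:**
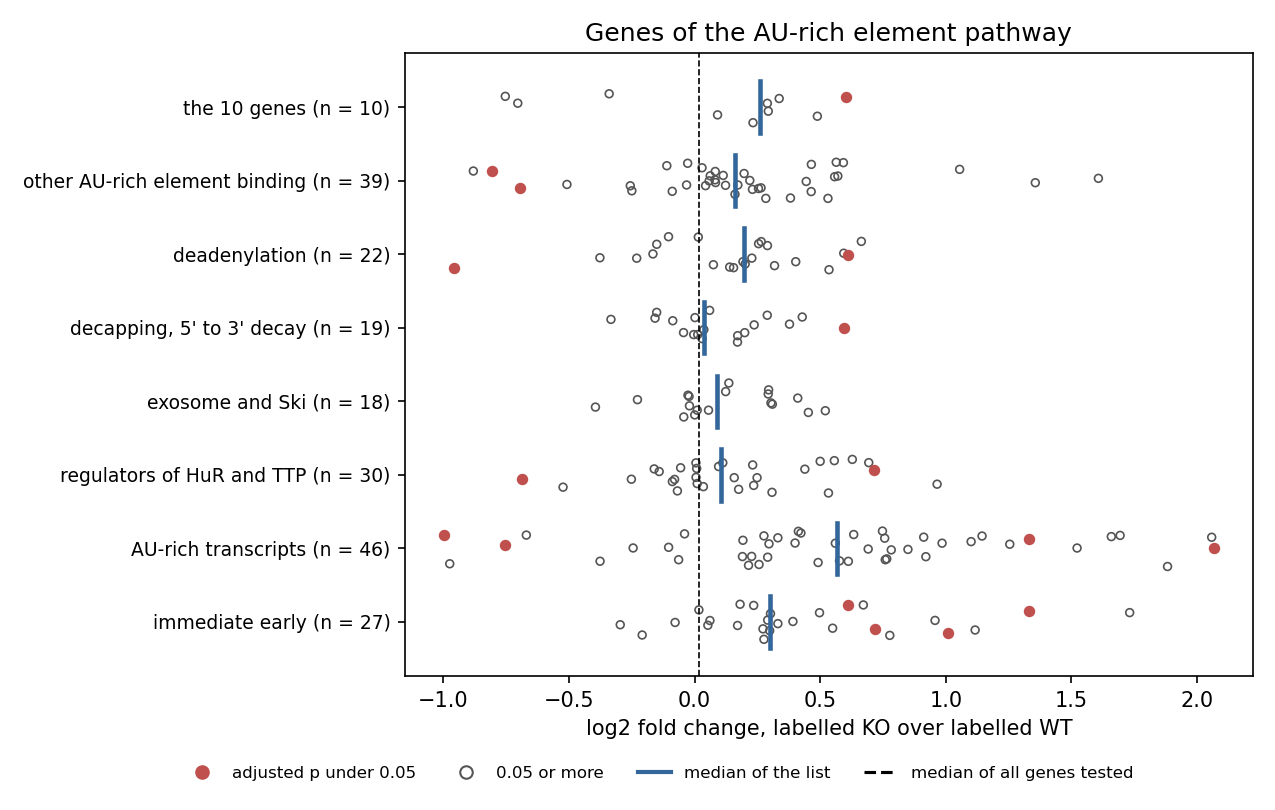
Log2 fold change of labelled KO over labelled WT for each tested gene of the 10 and of the 7 lists, with the number tested in brackets, the median of each list as a blue bar and that of all genes tested (0.016) as a dashed line. Filled points, with an adjusted p under 0.05, are few in every list, and the list of AU-rich transcripts has the median farthest to the right, at 0.57.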

How the data were processed

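Per the labels' protocols, total RNA of 6 tongues was sequenced after preparation with an Illumina TruSeq RNA kit. The authors deposited 3 tables, 1 of all 6 libraries and 2 of 4. In each, the authors gave gene counts as raw whole numbers without normalisation. Per the file headers each also holds the authors' DESeq2 output: a mean normalised signal, log2 fold changes of WT over KO with standard errors, a test score, and p-values with adjusted p-values. Tools were HTSeq and DESeq2 and builds hg19 and mm10, per the submitters' processing notes. The sources used here state neither their roles nor the aligner, annotation or strand setting.

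The second rows of 5 repeated symbols with identical counts were dropped from 24067 rows. The test used edgeR 4.0.16 (R 4.3.3) with filterByExpr (minimum count 10, minimum total 15), TMM, and a robust quasi-likelihood model with group as its only term. The threshold was 0.05. The fit's common biological coefficient of variation came to 20.7%. Standard errors are the difference divided by the square root of F and are approximate. DESeq2 1.42.0 and limma-voom (limma 3.58.1) were alternatives. Levels are CPM, and 1 CPM is 25.6 to 53.0 reads. No 2 libraries of a group agreed within sampling noise (chi-square per degree of freedom of 48.0 to 178).

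The members, gene lists, markers and tests were chosen with earlier results of these data known. Of each list, the 4 genes with the smallest adjusted p are named, except 1 gene that is not reported here. Cnot9, Mtrex and Adgre1 were matched as Rqcd1, Skiv2l2 and Emr1, and Trac was not matched. Pattern likeness used log2 CPM with a prior count of 2. Gene positions are those of RefSeq for GRCm38, and untranslated regions and exons those of GENCODE M21 for the same build. Of 11 marker lists, those of basal keratinocytes, of T, NK and B cells (23 to 34 CPM in KO, 12 to 21 in WT) and of salivary gland (Prol1, Smr3a, Dcpp1 and Dcpp2 at 0) had no gene called by edgeR, with 7, 5 and 1 genes at a p under 0.05 before adjustment. Endothelium had 3 lower of 10 genes tested, fibroblasts 6 of 12, Schwann cells 3 of 10 and adipocytes 2 of 9, and no higher one. Among all genes tested, 4.81% were called higher and 7.42% lower. Before adjustment 18.2% were higher and 20.3% lower with a p under 0.05.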

Additional observations from a re-analysis of the deposited data

How the results depend on the processing

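The 10 genes gave 1 call in the edgeR fit with TMM and with DESeq2's size factors, library size only, no filter on low counts and limma-voom. They gave 2 with DESeq2 (Zfp36 and Zfp36l1), 3 with KO replicates 1 and 2 and WT replicates 2 and 3, and 0 with KO replicates 1 and 2 and WT replicates 1 and 3 or with sex, the fast muscle mean or the basal keratinocyte mean as a covariate. In these 4 settings edgeR's p before adjustment was under 0.05 for 2, 2, 0 and 1 of the 10. Leaving out 1 library gave 0 to 4 calls, with 4 without WT replicate 1. The 1945 calls over all genes became 879 with library size only, 4347 with DESeq2, 5286 and 0 in the sets of 4 libraries, 0 with each covariate (with sex, 1675 were higher and 1859 lower with a p under 0.05 before adjustment), and 0 to 5842 without 1 library. The 13 calls of the 7 lists became 6 with library size only, 52 with DESeq2, 21 with limma-voom, 62 and 0 in the sets of 4 libraries, 0 with each covariate, and 0 to 76 without 1 library. The cause of these shifts was not tested.

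Replicate numbers were shared between the groups, but the correlation of same-numbered deviations was 0.122, -0.157 and 0.192 for numbers 1, 2 and 3, so they were not taken as pairs. KO replicates 1 and 2 and WT replicate 2 correlated best with another number. With the replicate block 2 of the 10 genes were called (Zfp36 and Zfp36l1, with adjusted p of 0.0297 and 0.0230), with 3816 of all genes and 45 of the lists.

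Elavl1 stayed positive and below the threshold throughout, from 0.17 to 0.40 without 1 library. Differences that changed sign were those of Elavl2 (0.078 with the muscle mean, 0.31 with the basal keratinocyte mean), Elavl4 (0.42 and 0.40 likewise), Hnrnpd (-0.10 with the muscle mean), Tia1 (-0.014 with sex) and Zfp36l2 (-0.064 with the basal keratinocyte mean). None of these was called in either setting. The level of Zfp36 per kb with all exon bases was an alternative chosen after seeing the data. Depth limits Elavl2, Elavl3 and Elavl4, at 8 to 22 reads a library.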

Other observations

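Over the whole table, 14367 of the 15901 genes tested were matched to an annotated 3′ untranslated region. Of these, 1125 held the nonamer TTATTTATT, of which 4.98% were called higher in KO and 8.44% lower. Among the 13242 genes without it, 4.98% were higher and 7.48% lower. The median differences were 0.035 and 0.014. Untranslated regions with the nonamer were longer, with a median of 2358 bases against 1045. Split by length, the share called lower with and without the nonamer was 3.12% and 5.73% up to 500 bases, 10.5% and 6.54% from 501 to 1000, 6.99% and 7.76% from 1001 to 2000, 7.99% and 9.38% from 2001 to 4000, and 11% for both above that, with no common direction. The share called higher was 6.25% and 6.37%, 7.26% and 5.57%, 5.59% and 5.07%, 4.38% and 3.42%, and 3.80% and 1.53% in the same order. This share was larger with the nonamer in every range above 500 bases and slightly smaller up to 500. In the same order the ranges held 64, 124, 286, 388 and 263 genes with the nonamer. The shares called higher among them rest on only 4, 9, 16, 17 and 10 genes. These are descriptions, and none was tested.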
